A study of Mus musculus with 8 samples.

Results

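The homeostatic microglia genes are a set of 38 transcripts that mark or maintain the resting state of microglia, the resident macrophages of the brain. They were chosen by name: every array probe whose deposited gene name equals a gene of the set was taken, which gave 56 probes of 37 genes among 39429 probes of 30139 genes. Of the 37 genes, 34 were measured, meaning that 1 genotype or both had a probe well above background on all 4 of its arrays, among 18336 genes measured in all. Ikzf1, Runx1 and Lyn were not well above background, and Spi1 has no probe under that name, so it is described through the probe that carries its older name, Sfpi1.

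RNA came from whole hippocampus of adult C57BL/6 mice of both sexes, aged 3 to 6 months, that had been through a battery of behavioural tests. Control mice (WT) were Ctcf loxP/loxP without Cre, and conditional knockout mice (CKO) were Ctcf loxP/loxP; Camk2a-Cre. Both genotypes thus carry the floxed alleles, and because Cre is present in CKO mice alone, effects of Cre and of Ctcf loss cannot be told apart. Camk2a-Cre is active mainly in excitatory neurons of the forebrain, so microglia are not the cells in which Ctcf is deleted. The comparison asks what their transcripts do in tissue where Ctcf is targeted mainly in excitatory neurons. Ctcf encodes CTCF, a DNA-binding protein that organises chromatin loops. Each sample pooled 3 mice, with 3 pools per genotype. The makeup of a pool number was the same in both genotypes: 2 females and 1 male of 19 to 23 weeks in pool 1, 3 females of 18 to 19 weeks in pool 2, and 3 males of 15 to 17 weeks in pool 3. The pools numbered 1 were each hybridised on 2 arrays, which were averaged. Values are log2 signal relative to the 75th percentile of the array, so a value of 0 is the signal that 75% of spots do not reach, and differences are CKO minus WT.

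Resting microglia survey the tissue with fine processes and depend on signals from other brain cells. CSF1R is kept active by IL-34 and CSF1, TGF-beta acts through its receptors to sustain the transcription factor SALL1, and the neuronal membrane protein CX3CL1 engages CX3CR1. The purinergic receptor P2Y12 steers processes toward ATP, and its transcript, like that of Tmem119, is known to decline when microglia take on a reactive state. MERTK and its bridging ligands Gas6 and protein S serve the uptake of dying cells. The transcription factor PU.1 (encoded by Spi1) is needed for the lineage to form, and IRF8 acts with it in microglial gene expression.

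Ctcf, the targeted gene, read by 1 probe, was 0.83, 1.12 and 1.04 in WT pools 1, 2 and 3 and 0.18, 0.16 and 0.05 in CKO pools. The difference was -0.87 (SE 0.13), with all CKO pools below all WT pools. Its limma adjusted p over all genes was 0.143, so even the targeted gene did not pass the threshold of 0.05 used below. It passed with pool number fitted as a block (0.0292) and on the first array of each pool (0.00663). Between 59.2% and 66.0% of spots per array were well above background. The second array of WT pool 1 stood apart: it correlated with its mate at r = 0.954 across genes, against 0.989 for both arrays of CKO pool 1. Of the 34 member genes, 18 differed by more than 0.5 between both arrays of WT pool 1 and 2 did so in CKO pool 1, against 50.6% and 15.8% of all genes. For the 18 members with such a gap in WT pool 1, the difference on the first array of each pool is therefore also given below. Marker genes of the tissue were present, with the neuronal Snap25 between 5.32 and 5.87 in every pool.

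None of the 34 homeostatic microglia genes had a difference between genotypes at an adjusted p under 0.05 (limma, Benjamini-Hochberg over 18336 genes), where 0.0273% of all genes, 5 in number and all higher in CKO, passed. When pool number was fitted as a block 0 of 34 passed, where 0.562% of all genes did, and from the first array of each pool 0 of 34, where 0.687% did. At an unadjusted limma p under 0.05, 3 members were higher in CKO and 0 lower, where 2.92% and 2.56% of all genes were; the 3 were Pros1, Irf8 and P2ry6. This count turned on single pools: 11 were higher and 1 lower without WT pool 1 (9.46% and 9.32% of all genes), 5 higher without CKO pool 3 (2.24%), 1 without WT pool 3 (2.21%) and 0 without CKO pool 2 (1.93%). These 3 were also the members whose CKO pools did not overlap with, and exceeded, the WT pools, a pattern shown by 5.71% of all genes, and no member had all CKO pools below all WT pools, as 5.64% of genes did. In mean, 23 members were higher and 11 lower in CKO, where 49.4% of all genes were higher, and the median difference of the members was 0.14 against -0.003 for all genes. Because the sample is whole tissue, more or fewer microglia and more or less RNA per microglial cell cannot be told apart.

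**Figure D1:**
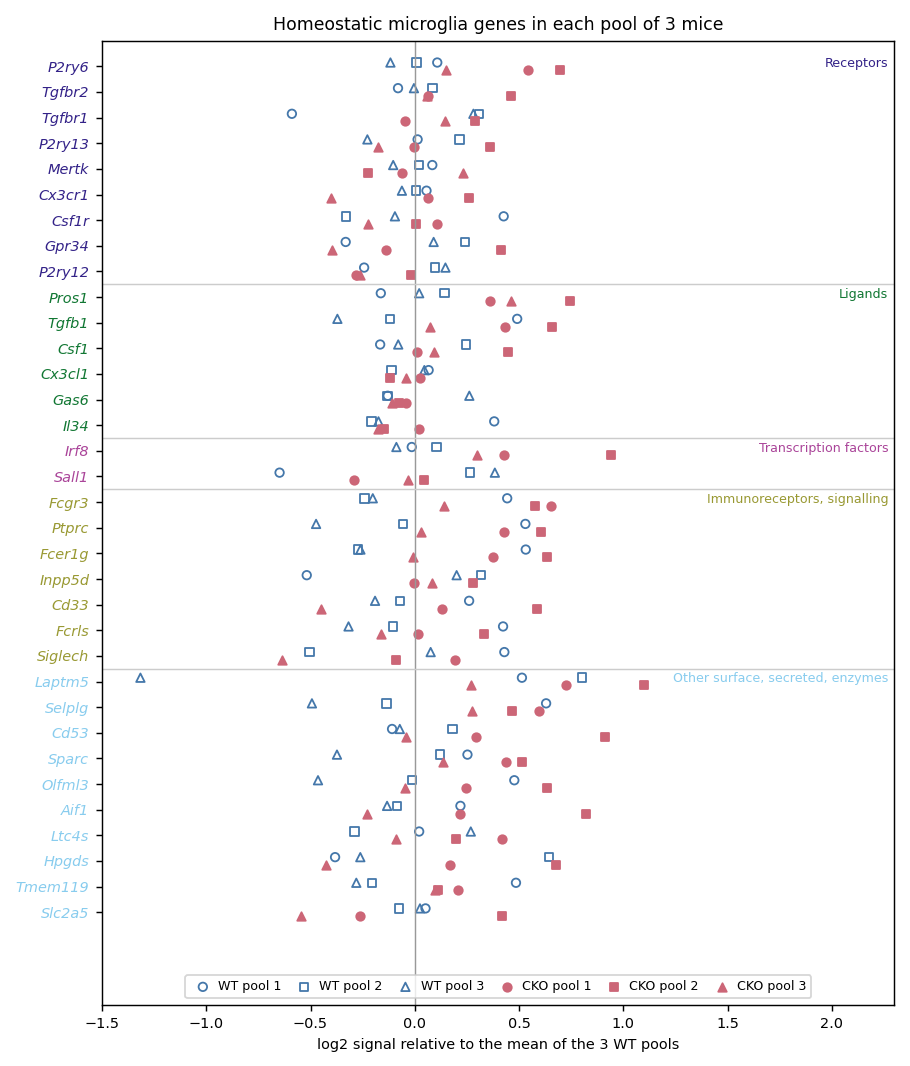
Log2 signal of each of the 34 measured members in each pool of 3 mice, relative to the mean of the 3 WT pools (open blue symbols WT, filled red symbols CKO; circle, square and triangle for pools 1, 2 and 3), grouped by role. CKO pools lie to the right of every WT pool in Pros1, Irf8 and P2ry6 alone, and CKO pool 2 is the highest pool in 19 members.

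Among the 9 receptors, 4 were higher and 5 lower in CKO, with a median difference of -0.02. P2ry12, the purinergic receptor most used to identify resting microglia, is read by a probe whose first 30 of 60 bases are shown here, beside those of the probes for the members that lay apart by genotype, so that each value can be traced to the transcript stretch it reads.
P2ry12: tgcacattaagatggtagaggtttaaaagg
P2ry6: gttcacatccatttgccaagacttttgcat
Pros1: atcagagacatcaggttatgctgtaagagg
Irf8: aacagacagggtcgacagagtgtgtgatac

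P2ry12 stood at -0.91, -0.57 and -0.52 in WT pools 1, 2 and 3 and at -0.95, -0.68 and -0.93 in CKO pools. CKO was below WT in each of the 3 pool numbers, but WT pool 1 lay among the CKO pools. The difference was -0.19 (SE 0.17, 95% interval -0.57 to 0.19; limma adjusted p = 0.999). WT pool 1 is the mean of arrays at -0.40 and -1.42, the second being the array that stood apart. On first arrays alone, all CKO pools (-0.83, -0.68 and -0.93) lay below all WT pools (-0.40, -0.57 and -0.52), which 11.5% of all genes did. That difference was -0.32 (SE 0.11), with an unadjusted limma p of 0.019 and an adjusted p of 0.251. P2ry12 differed by -0.27 within slide 1, where the pools numbered 2 were run beside the first pool 1 arrays, and by -0.03 within slide 2, where the pools numbered 3 were run beside the second ones.

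P2ry6, the UDP receptor linked to phagocytosis, was the receptor with the smallest unadjusted p. It was -2.34, -2.43 and -2.56 in WT pools and -1.90, -1.75 and -2.29 in CKO pools. The genotypes did not overlap, and CKO pool 3 came closest to the WT pools. The difference of 0.46 (SE 0.20), or 1.38-fold, did not pass (limma adjusted p = 0.903, and 0.505 with the block). It was 0.55 within slide 1 and 0.36 within slide 2. On first arrays, where WT pool 1 stood at -2.25, CKO pool 3 lay below that pool.

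Cx3cr1, the fractalkine receptor, was 1.97, 1.91 and 1.85 in WT pools and 1.97, 2.17 and 1.505 in CKO pools. The WT pools lay between the lowest and the highest CKO pool, and the difference of -0.03 had a 95% interval of -0.42 to 0.37. Csf1r, the receptor on which microglial survival depends, was 4.18, 3.43 and 3.66 in WT and 3.86, 3.76 and 3.53 in CKO. Its difference was -0.04 (interval -0.49 to 0.42), and again the pools overlapped. These intervals leave room for a change of either sign.

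The other receptors also overlapped between genotypes. Gpr34, a lysophosphatidylserine receptor, differed by -0.04 (SE 0.25) and P2ry13, an ADP receptor, by 0.06 (SE 0.20). Mertk, the uptake receptor, differed by -0.02 (SE 0.16). The TGF-beta receptors gave 0.13 (SE 0.26) for Tgfbr1 and 0.20 (SE 0.16) for Tgfbr2. Tgfbr2 was -0.85, -0.68 and -0.77 in WT and -0.70, -0.31 and -0.71 in CKO, with CKO pool 2 highest.

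Of the 6 ligands, 3 were higher and 3 lower in CKO. Pros1, which encodes protein S, a bridging ligand of the TAM receptors that is also made outside microglia, had the smallest unadjusted p of all members. It stood at -1.59, -1.29 and -1.41 in WT pools and at -1.07, -0.69 and -0.97 in CKO pools. CKO was higher in every pool number, by 0.52, 0.60 and 0.44, and the genotypes did not overlap. The difference of 0.52 (SE 0.17), or 1.44-fold, had an adjusted p of 0.707 by limma and of 0.309 with the block. On first arrays it was 0.45 (SE 0.12, adjusted p = 0.165), and by slide it was 0.45 and 0.59. Gas6, the other bridging ligand, gave no such separation, with 2.46, 2.46 and 2.85 in WT and 2.55, 2.51 and 2.48 in CKO (difference -0.08, SE 0.14).

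The CSF1R ligands differed by less than the spread between pools. Il34, made mainly by neurons, was 2.40, 1.81 and 1.84 in WT and 2.04, 1.87 and 1.84 in CKO, with WT pool 1 apart from the other WT pools. Its difference was -0.10 (SE 0.17). Csf1 was -1.005, -0.59 and -0.92 in WT and -0.83, -0.39 and -0.75 in CKO. CKO was higher in each pool number, by 0.18, 0.20 and 0.17, yet the pools overlapped, since pool 2 was the highest in both genotypes (difference 0.18, SE 0.18; limma adjusted p = 0.855 with the block). Cx3cl1, the neuronal ligand of CX3CR1, was 4.55, 4.37 and 4.53 in WT and 4.50, 4.36 and 4.44 in CKO. It had the smallest standard error of the members, 0.12, and a difference of -0.05 (interval -0.32 to 0.23).

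Tgfb1, the TGF-beta isoform made by microglia themselves, was -3.71, -4.32 and -4.57 in WT and -3.77, -3.54 and -4.13 in CKO. WT pool 1 lay among the CKO pools, and the difference was 0.39 (SE 0.28). Its arrays of WT pool 1 differed by 0.78, and on first arrays the difference was 0.47 (SE 0.20, limma adjusted p = 0.335).

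**Figure D2:**
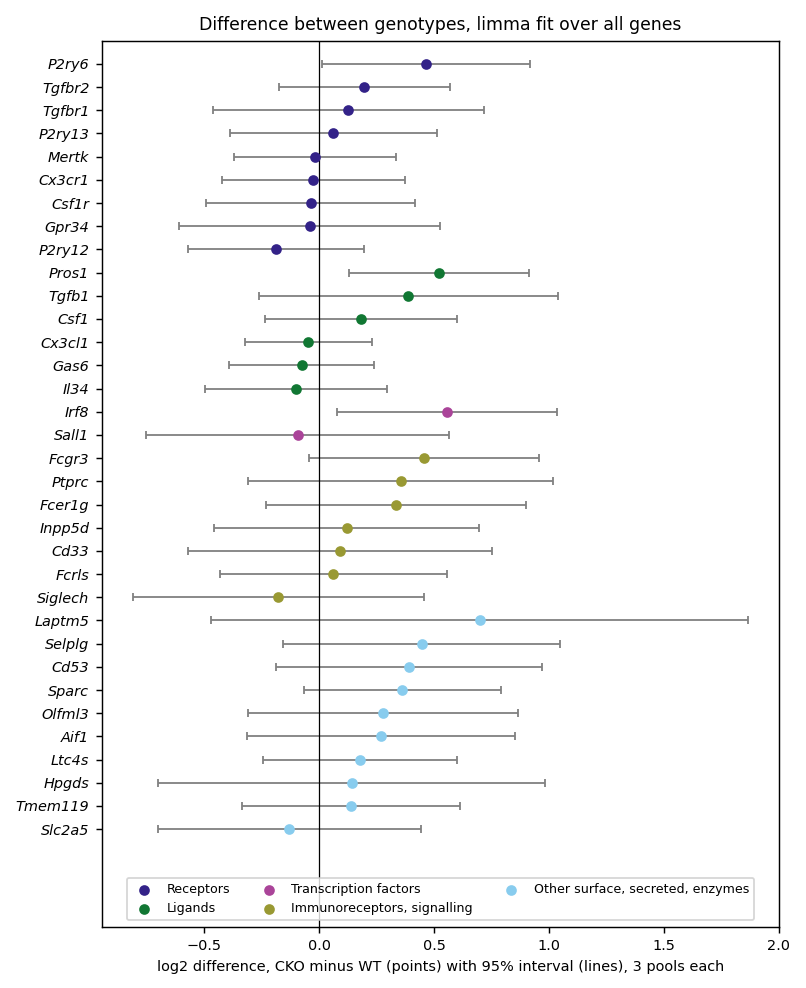
Difference between genotypes of each member on the log2 scale (points, coloured by role) with its 95% interval (lines) from the limma fit over all genes, 3 pools per genotype. The intervals of 31 of 34 members include 0; those of Pros1, Irf8 and P2ry6 do not, before adjustment over genes.

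Of the 5 transcription factors, Irf8 and Sall1 were measured under their names. Irf8, which with PU.1 drives microglial gene expression, was -2.41, -2.29 and -2.49 in WT pools and -1.97, -1.46 and -2.10 in CKO pools. The genotypes did not overlap, with CKO pool 2 far above the other pools. The difference was 0.56 (SE 0.21), or 1.47-fold, with an adjusted p of 0.816 by limma and of 0.377 with the block. It was 0.61 and 0.45 within slides 1 and 2, and 0.53 (SE 0.18) on first arrays, where the genotypes did not overlap either. Sall1, the factor that marks microglia among macrophages and restrains their activation, was -3.26, -2.35 and -2.23 in WT and -2.90, -2.57 and -2.64 in CKO. Its difference was -0.09 (SE 0.29), and both arrays of WT pool 1 differed by -1.29 (-2.62 and -3.90). On first arrays it was -0.23 (limma adjusted p = 0.482), with WT pool 1 inside the CKO range.

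Spi1, which encodes PU.1, is read by the probe named Sfpi1 on the array, matched through its RefSeq accession. Its first 30 bases are given because the deposited name does not show the gene.
Spi1: gatggagaaagccatagcgatcactactgg
From CKO, 4 of 4 arrays had it well above background, and from WT 0 of 4. The probe thus passed the background filter through CKO arrays alone, and its WT level is uncertain. Measured signals were -5.07, -5.28 and -5.97 in WT pools and -4.40, -4.02 and -5.14 in CKO pools. The genotypes overlapped, with CKO pool 3 below WT pool 1. The CKO mean of -4.52 was 1.47-fold above a WT level of -5.07, raised to the background filter, where the measured WT mean was -5.44. The difference in measured signal was 0.92 (SE 0.36; limma adjusted p = 0.845, and 0.220 with the block). It was 0.47 with normexp background correction and 0.44 on slide 2 alone. The raised level takes, for each WT array, the higher of the probe's own signal and the lowest signal of any probe well above background. It is not a detection limit of this probe, so the fold is not a lower limit. The second array of WT pool 1, at -4.47 against -5.68 on its mate, lay within the CKO range.

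The word GAGGAAGT, a PU.1 binding sequence, was looked for on both strands of the promoters of the members, from 250 bases before to 50 after the start, because PU.1 is known to bind such sites in microglia. Of the 30 members with a RefSeq promoter (GRCm38.p6), 3 held it: Inpp5d, Cd53 and Hpgds, where 3.69% of 27025 genes did. The stretches are shown on the gene's strand with the word, or its reverse complement in Cd53, in capitals. They lie at chr1:87620281-87620310 (plus strand), chr3:106790125-106790154 (minus strand) and chr6:65144761-65144790 (minus strand).
Inpp5d: gtttctataatGAGGAAGTtctgtgcagct
Cd53: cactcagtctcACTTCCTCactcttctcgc
Hpgds: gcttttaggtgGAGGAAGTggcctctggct
The composite ETS-IRF word, bound by PU.1 with IRF8, was found in 0 of 30 members and 3.16% of genes, and a CTCF core word in 0 of 30 members and 0.0703% of genes. Differences of the genes holding the PU.1 word were 0.12 (SE 0.25) for Inpp5d, 0.39 (SE 0.25) for Cd53 and 0.14 (SE 0.37) for Hpgds.

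Of the 8 immunoreceptors and proximal signalling genes, 7 were measured, and 6 were higher and 1 lower in CKO, none past the threshold. The lower gene was Siglech, whose sign depends on the probe, as given below. Fcgr3, a low-affinity receptor for immunoglobulin G, was 1.17, 0.48 and 0.52 in WT pools and 1.38, 1.30 and 0.86 in CKO pools. CKO was higher in each pool number, but WT pool 1 lay above CKO pool 3. The difference was 0.46 (SE 0.22; limma adjusted p = 0.973, and 0.385 with the block). Fcer1g, the common signalling chain that Fc receptors share, was 2.66, 1.86 and 1.87 in WT and 2.50, 2.76 and 2.12 in CKO, with WT pool 1 again among the CKO pools (difference 0.33, SE 0.25). Ptprc, the phosphatase CD45, was -2.78, -3.37 and -3.79 in WT and -2.89, -2.71 and -3.28 in CKO (difference 0.35, SE 0.29).

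Ptprc had the largest gap between both arrays of WT pool 1 of any member, 1.32 (-3.44 and -2.12), against 0.40 in CKO pool 1. On first arrays the CKO pools of Ptprc were above every WT pool, as were those of Pros1, Irf8 and Selplg, 4 members in all, a pattern of 10.5% of genes. Its difference was then 0.51 (SE 0.19, limma adjusted p = 0.285). Inpp5d, the inositol phosphatase SHIP1, gave 0.12 (SE 0.25), the sialic acid-binding receptor Cd33 0.09 (SE 0.29) and the Fc receptor-like Fcrls 0.06 (SE 0.22). In these 3 genes CKO was above WT in some pool numbers and below in others.

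Siglech, a sialic acid-binding lectin used as a microglial marker, is read by 3 probes, and the brightest ends in a simple repeat. The last 30 of the 60 bases of each are given, with the run of 22 bases of the repeated unit that starts within them in capitals; the longest such runs of the other probes, which are not capitalised, are 7 and 6 bases.
Siglech probe A, brightest: tctgtctcAAAGAAAGAAAGAAAGAAAGAA
Siglech probe B: ccctggtggattcctcccaacatttctgga
Siglech probe C: ctccaaagttgaagaggctttgacttagtt
Probe A gave 5.38, 4.45 and 5.03 in WT and 5.15, 4.86 and 4.31 in CKO, a difference of -0.18 (SE 0.28). Probe B, at -1.75, -3.16 and -1.73 in WT, gave -0.62 (SE 0.45). Probe C, at 0.58, -0.015 and -0.63 in WT, gave 0.24 (SE 0.29), so level and sign depend on the probe. Whether the brightest probe reads Siglech alone was not tested. With probes holding such repeat runs left out, 24 of 34 members were higher in CKO. Siglech is 1 of 8 members with more than 1 kept probe, and in 4 of these, Cx3cr1, Csf1r, Csf1 and Siglech, the probes differed in sign.

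**Figure D3:**
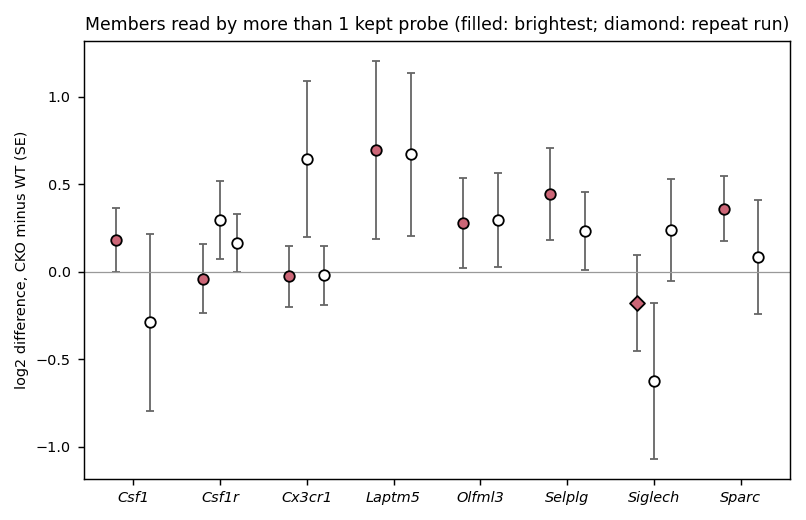
Log2 difference, CKO minus WT, with its SE, for each kept probe of the 8 members that have more than 1 (filled: the brightest probe, which gives the reported value; diamond: the probe ending in a repeat). Probes of Laptm5, Olfml3, Selplg and Sparc lie on the same side of 0, while those of Csf1, Csf1r, Cx3cr1 and Siglech lie on both.

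For Cx3cr1, the brightest probe and the one sharing 55 bases with it gave -0.03 and -0.02. The third gave 0.64 (SE 0.44), carried by WT pool 3 at -2.09 against -0.13 and -0.58 in the other WT pools. The additional Csf1r probes gave 0.30 (SE 0.22) and 0.16 (SE 0.17). The dimmer Csf1 probe gave -0.29 (SE 0.51). The unadjusted limma p of each of these additional probes was 0.183 or more.

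The remaining 10 surface, secreted, enzyme and cytoskeletal genes included 9 with a higher mean in CKO and 1 lower, with a median of 0.27 and none past the threshold. Tmem119, a membrane protein specific to resident microglia among brain macrophages, was 0.53, -0.16 and -0.24 in WT pools and 0.25, 0.16 and 0.14 in CKO pools. WT pool 1 was the highest pool and the other WT pools the lowest, with the CKO pools between. The difference was 0.14 (SE 0.21, interval -0.34 to 0.61). The arrays of WT pool 1 stood at 0.22 and 0.84, and on first arrays the difference was 0.19 (limma adjusted p = 0.516), still with overlap.

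Sparc, a matricellular protein that endothelial cells and astrocytes make too, was 3.94, 3.80 and 3.31 in WT and 4.12, 4.20 and 3.82 in CKO. CKO was higher in each pool number, and CKO pool 3 lay below WT pool 1 (difference 0.36, SE 0.19; its second probe 0.09, SE 0.32). Selplg, the P-selectin ligand, was 0.92, 0.16 and -0.20 in WT and 0.89, 0.76 and 0.57 in CKO, overlapping only through WT pool 1. Its difference was 0.45 (SE 0.26), and 0.54 (SE 0.16, limma adjusted p = 0.191) on first arrays, where WT pool 1 stood at 0.46 and the genotypes did not overlap.

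Laptm5, a lysosomal protein of blood-lineage cells, had the largest difference of the measured members, 0.70 (SE 0.51). It was -1.74, -1.45 and -3.57 in WT and -1.52, -1.15 and -1.98 in CKO. WT pool 3 lay far below the other pools, in the second probe as well (-3.96 against -2.47 and -2.06), and without it the difference was 0.04. Cd53, a tetraspanin of the same lineages, was -2.13, -1.84 and -2.09 in WT and -1.72, -1.10 and -2.06 in CKO, with CKO pool 3 between the WT pools (difference 0.39, SE 0.25).

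Olfml3, a secreted olfactomedin-like protein, differed by 0.28 (SE 0.26). Aif1, which encodes the calcium-binding protein IBA1, differed by 0.27 (SE 0.26): the 3 WT pools lay between -0.44 and -0.09 and the CKO pools between -0.54 and 0.51. The prostaglandin D synthase Hpgds, which 3 of 4 WT arrays had well above background, gave 0.14 (SE 0.37) and the leukotriene C4 synthase Ltc4s 0.17 (SE 0.18). Slc2a5, a fructose transporter, was the only gene of this group with a lower mean in CKO, -0.13 (SE 0.25).

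**Figure D4:**
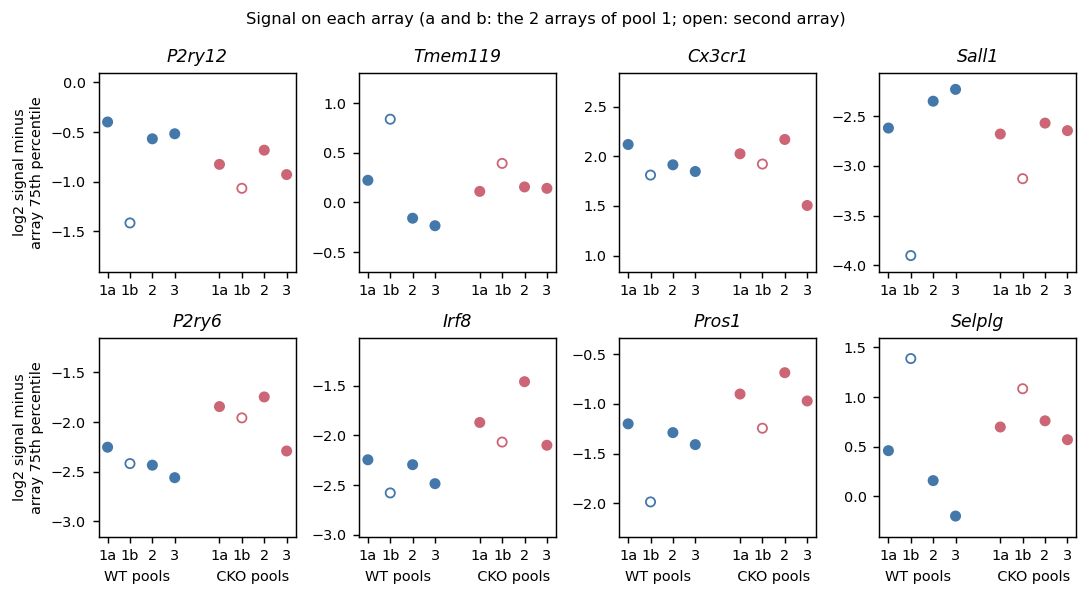
Log2 signal relative to the array 75th percentile on each of the 8 arrays for 8 members (blue WT, red CKO; 1a and 1b are both arrays of pool 1, the second drawn open), each panel on an axis spanning 2 log2 units with its own zero point. The second array of WT pool 1 lies apart from the other WT arrays in P2ry12, Tmem119, Sall1, Pros1 and Selplg, while every CKO array lies above every WT array in Irf8, and all but that of CKO pool 3 do in P2ry6.

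The differences varied with the pool number. CKO was above WT in 17 of 34 members in pool number 1, in 28 in pool number 2 and in 18 in pool number 3, where 45.7%, 57.9% and 46.2% of all genes were above. The median difference of the members was 0.00, 0.38 and 0.04 in the 3 pool numbers, against -0.03, 0.05 and -0.03 over all genes. CKO pool 2 was the highest of the 6 pools in 19 of 34 members, as in 11.3% of all genes. In pool number 2 the largest differences were those of Fcer1g (0.91), Aif1 (0.91), Irf8 (0.84) and Fcgr3 (0.82). The same genes gave -0.16, -0.00, 0.44 and 0.21 in pool number 1 and 0.25, -0.10, 0.39 and 0.34 in pool number 3. CKO was higher in all 3 pool numbers in 9 members and lower in all 3 in 2, P2ry12 and Cx3cl1, where 14.1% and 14% of all genes were. Pool 2 is the pool of females alone and has its own age range, and with 1 pair per number sex, age and the individual mice cannot be told apart. It was run on slide 1, where the first arrays of the pools numbered 1 gave a higher CKO value in 18 of 34 members and a median of 0.03, against 46.1% of all genes and a median of -0.02. By slide, the median of the members was 0.15 on slide 1 and 0.04 on slide 2, against 0.02 and -0.04 over all genes.

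**Figure D5:**
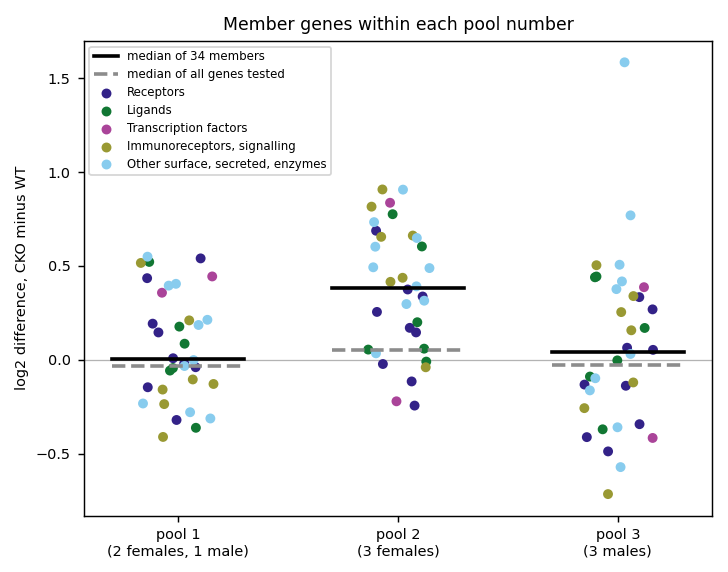
Log2 difference, CKO minus WT, of each of the 34 members within each pool number (points, coloured by role and spread sideways for legibility), with the median of the members (solid line) and of all genes tested (dashed line). The median of the members is 0.38 in pool number 2 and near 0 in the others, where the points spread to both sides.

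Without the second array of WT pool 1, again 0 of 34 members passed the adjusted threshold, where 0.72% of genes did. On first arrays 8 members had an unadjusted limma p under 0.05, 7 of them higher in CKO and P2ry12 lower, where 7.03% and 7.59% of all genes were. For further members with a gap over 0.5 in WT pool 1, first-array differences were -0.16 (Gpr34), 0.04 (Tgfbr1), 0.004 (P2ry13), -0.06 (Il34) and 0.39 (Fcer1g). Others were 0.06 (Inpp5d), -0.13 (Siglech), 0.29 (Ltc4s), 0.03 (Hpgds) and 0.50 (Fcgr3, limma adjusted p = 0.193). With the pool number as a block, 7 members were higher and 0 lower at an unadjusted limma p under 0.05, where 4.58% and 3.76% of all genes were: Pros1, Irf8, Sparc, Fcgr3, Laptm5, Selplg and P2ry6. Their adjusted p ran from 0.309 (Pros1) to 0.505 (P2ry6). When pools were weighted by how well they fit the model, WT pool 3 received a weight of 3.90 and WT pool 1 of 0.157. In that fit 11 members passed, all higher in CKO, where 14% of all genes did and 7.25% as higher. Those 11 include Selplg, Sparc, Laptm5, Pros1 and Tmem119, and that setting rests mainly on 1 WT pool.

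Of the partners of these genes in the same pathways, limma called 0, where 0.0273% of all genes passed without the block and 0.562% with it. Unadjusted limma p was under 0.05 without the block for 1 gene of the TGF-beta list and 1 of the CSF1R list. Both were higher in CKO, where 2.92% of all genes were higher and 2.56% lower. With the block, 1 TGF-beta, 1 CSF1R and 2 DAP12 genes were higher and 0 lower, where 4.58% and 3.76% of all genes were. Of 15 measured genes of the TGF-beta pathway 10 were higher and 5 lower in CKO (median 0.08), led by the corepressor Tgif1 (0.41, SE 0.17) and the signal transducer Smad3 (-0.25, SE 0.14). Of 11 partners of CSF1R, the TAM receptors and CX3CR1, 5 were higher and 6 lower, with the phosphatase Ptpn6 at 0.64 (SE 0.26) and the receptor Tyro3 at -0.30 (SE 0.18). Of 10 genes of DAP12 and ITAM signalling 8 were higher (median 0.25). The adaptor Fyb, which 1 of 4 WT arrays and 4 of 4 CKO arrays had well above background, gave 0.78 (SE 0.35), and Tyrobp, which encodes DAP12, gave 0.52 (SE 0.23). Of 7 other purinergic and adenosine genes 3 were higher and 4 lower, and of 8 further transcription factors of microglia and macrophages 6 were higher, with Cebpa at 0.37 (SE 0.18). CKO arrays alone brought 2 of the TGF-beta genes, 2 of the CSF1R, TAM and CX3CR1 partners, 1 DAP12 gene and 1 purinergic gene past the background filter, and these counts include them.

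Genes known to mark reactive and phagocytic microglia were set beside the homeostatic members. Axl, Trem2 and Tyrobp are in this list and among the pathway partners above. Of the 26 listed genes, Itgax, Cst7 and Gpnmb were not well above background. Of 23 measured, 20 were higher and 3 lower in CKO, where 49.4% of all genes were higher. Their median difference was 0.52, against -0.003 over all genes. It was 0.19, 0.98 and 0.24 in pool numbers 1, 2 and 3, and 0.61 and 0.17 on slides 1 and 2. The 3 lower were Spp1 (-0.72, SE 0.72), Lpl (-0.21, SE 0.16) and Apoe (-0.16, SE 0.22). Of the 23 measured, 2, Tlr2 and Lilrb4a, came past the background filter through CKO arrays alone. Of the 21 well above background on all arrays 18 were higher, with a median of 0.45. Tlr2, a receptor for microbial lipopeptides, was 1.53 higher in measured signal (SE 0.27; limma adjusted p = 0.174). It had 3 of 4 WT arrays well above background. Its limma adjusted p was 0.0266 with the block, 0.0360 on first arrays and 0.0352 without the second array of WT pool 1. It was the one gene of the list under 0.05 in those fits, where 0.562%, 0.687% and 0.72% of all genes were. The filter let Tlr2 in through the genotype in which it is high, so these values are not support for a difference. The lectin receptor Clec7a differed by 1.87 (SE 0.55) and the orphan receptor Gpr84 by 1.20 (SE 0.33), neither of which passed (0.0824 and 0.0737 with the block). With Tlr2 and Lilrb4a included, the mean log2 level of this list relative to the WT mean lay between -0.07 and 0.06 in WT pools. In CKO pools 1, 2 and 3 it was 0.52, 0.96 and 0.18. Pool means without these genes were not taken, and the list was chosen with earlier results of these data known. The mean of the homeostatic members was 0.10, 0.02 and -0.13 in WT pools and 0.18, 0.40 and -0.06 in CKO pools, which overlap. CKO pool 2 was the highest pool in both lists, and the difference between the lists was not tested.

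Markers of other cell types were measured beside these. The mean of 9 genes of monocytes, neutrophils and lymphocytes was high in pool 1 of both genotypes, at 0.85 in WT and 0.64 in CKO, and lay between -0.49 and -0.03 in the other pools. Of its 15 listed genes, Ly6c2 had no probe, Ccr2, Ngp, Cd3g, Cd8a and Ms4a1 were not well above background, and 0 passed. The mean of 8 border macrophage genes lay between -0.07 and 0.08 in WT and between -0.21 and 0.04 in CKO, with Cd163 not well above background. The 10 choroid plexus genes were all higher in mean in CKO (median 0.83), where 49.4% of all genes were higher. However, their mean in WT pool 1 stood at -1.12 against 0.38 and 0.75 in the other WT pools. CKO arrays alone brought Aqp1 of this list and Lyve1 of the border macrophage list past the background filter. The 9 endothelial and mural genes ranged from -0.25 to 0.24 in WT and from 0.02 to 0.17 in CKO. The 9 measured neuronal genes ranged from -0.04 to 0.04 in both genotypes, with Prox1 not well above background. Of 8 oligodendrocyte genes 7 were higher in CKO (median 0.23), led by the myelin gene Mobp at 0.37 (SE 0.13), and 0 passed. Of 8 astrocyte genes 4 were higher and 4 lower, and Gfap, the intermediate filament of reactive astrocytes, differed by 0.68 (SE 0.19) and was past the threshold in the blocked fit alone (limma adjusted p = 0.0460). The part of these cells in the differences of the homeostatic genes was not tested.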

How the data were processed

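Whole-hippocampus RNA was hybridised in the Cy5 channel of 1-colour Agilent arrays, 8 arrays on 2 slides of 4. The deposited files hold the intensity of each spot. It was made with Agilent Feature Extraction, whose version is 11.5.1.1 in the file headers and 11.5 in the submitters' processing notes, and was background-subtracted and detrended within an array but not normalized between arrays. A value table of the series, also deposited, holds linear intensities as well, which rank spots like the background-subtracted signal. Its array medians ran from 652 to 944, how the authors scaled it between arrays is unknown, and it was an alternative. Other deposited columns used were flags. Probe names were updated through RefSeq (GRCm38.p6): 27508 of 39429 probes by accession, 3544 by symbol and 404 by synonym, while 7973 kept the name in the file.

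Values are log2 of the intensity minus that of the array's 75th percentile. Outlier spots were left out, spots of a probe and both arrays of pool 1 were averaged, and the 23648 probes well above background on all 4 arrays of either genotype were kept. A gene is read by its brightest probe. Genotypes were compared by two-sided tests in limma 3.58.1 under R 4.3.3 (lmFit and eBayes, with a mean trend), and p-values were adjusted over 18336 genes after Benjamini and Hochberg, with 0.05 as the threshold; the block could be fitted for 18333. Separation of the pools was counted over the 18305 genes with a value in all 6 pools. An array's depth cannot be counted, and 3 pools per genotype limit the precision. The script was tested on simulated data.

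Same-numbered pools share a sex and age makeup in the labels, so the number was taken to pair them. Their deviations from the genotype means correlated at 0.549, 0.335 and 0.131 for pools 1, 2 and 3. The highest correlation between differently numbered pools was 0.123. On first arrays the same-numbered correlations were 0.0857, 0.0773 and 0.124. Deviations sum to 0 within a genotype, which ties the correlations to one another. In both genotypes pool 2 was on slide 1 and pool 3 on slide 2, so these correlations cannot tell sex and age from slide. Where the pools came from beyond 3 mice each is not stated. The members, the further gene lists and the rule for named genes were chosen with earlier results of these data known: every member is named, per-pool values are given for the 12 members of smallest unadjusted p and for members named in the rule for their role, and up to 3 genes of each further list are named in order of unadjusted p. Lilrb4a, Spp1, Lpl, Apoe, Axl and Trem2 were named after their values were seen. Alternatives were other scalings, background correction, filters, probe rules, slides, arrays and pools left out, array weights and the block.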

Additional observations from a re-analysis of the deposited data

How the results depend on the processing

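Across 25 alternative settings, 507 of the differences of named genes kept their sign and their side of the threshold, 11 passed it and 31 changed sign. No member passed except with array weights, which called 11 members and 2569 genes. The median of the members stayed above 0 in all settings, and with 1 pool left out it ran from 0.05 to 0.25. The median of all genes moved by less than 0.1 under each scaling. The number of genes passing was 5 in the reported fit, 103 with the pool number as a replicate block, 126 on the first array of each pool, 132 without the second array of WT pool 1, 3 in the series value table, 0 on slide 2 alone, and 0 to 21 with 1 pool left out (0 without WT pool 3 or CKO pool 3, 2 without CKO pool 1, 21 without WT pool 1). Settings added after the data were seen gave 8 genes without repeat-run probes, 57 with that and the block, and 69 with the block on first arrays. The block changed no call among the members. The cause of these changes was not tested.

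P2ry12 was negative under all 25 settings, from -0.36 to -0.03. Differences near 0 changed sign. Cx3cr1 was 0.0051 with quantile normalization, 0.0088 in the series value table, 0.20 as the mean of its probes, 0.081 on slide 1 and 0.0041 with array weights. Csf1r was 0.015 with quantile normalization, 0.14 as the mean of its probes, 0.10 on slide 1, 0.026 on first arrays (with the block too), 0.082 without the second array of WT pool 1 and 0.038 with array weights. Cx3cl1 was 0.015 with normexp and 0.039 in the series value table. Csf1 was -0.0525 as the mean of its probes, Gas6 0.11 on slide 1 and Il34 0.0385 with array weights. On slide 2 alone Fcer1g was -0.035, Ptprc -0.029, Tmem119 -0.034 and Sall1 0.18. With 1 pool left out the ranges were -0.17 to 0.16 for Cx3cr1, -0.20 to 0.18 for Csf1r, -0.20 to 0.089 for Il34, -0.42 to 0.10 for Sall1, -0.0026 to 0.38 for Tmem119 and -0.14 to 0.054 for Gas6. Larger differences also moved by over 1.5 times while keeping their sign. Without WT pool 3 Sparc was 0.17, Selplg 0.20, Tgfb1 0.20, Ptprc 0.12, Laptm5 0.04 and P2ry12 -0.115. Without CKO pool 2 Irf8 was 0.36, Cd53 0.13, Tgfbr2 0.06, Fcer1g 0.18 and Csf1 0.05. Without WT pool 1 Selplg was 0.76, Tgfb1 0.63, Fcer1g 0.60, Ptprc 0.62 and P2ry12 -0.31. Without CKO pool 3 Cd53 was 0.61, and without WT pool 2 Csf1 was 0.31 and Laptm5 1.10.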
